A study of Mus musculus with 12 samples.

Results

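The nuclear genome encodes most subunits of the mitochondrial respiratory chain and of ATP synthase, and 74 such genes were followed through 4 denervated adipose depots of the mouse. They were taken by symbol, as genes named Nduf with an a, b, c, s or v and a number, Ndufab1, Sdha to Sdhd, all Uqcr and Atp5 genes, Cyc1, Cycs, Cox5a, Cox5b, Cox6b1, Cox6c, Cox7b and Cox7c. Pseudogenes named with -ps were left out, 4 in number, so that 74 of 47729 genes remained. By these names 37 belonged to complex I, 4 to complex II, 9 to complex III, 6 to complex IV and 17 to complex V, and Cycs, which encodes somatic cytochrome c, stood alone. The names and current knowledge of the subunits differ in places. The product of Ndufa4 is now assigned to complex IV, Atp5s encodes coupling factor B, and Atp5sl, called Dmac2 in GENCODE M21, is known for the assembly of complex I.

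The tissues were interscapular brown adipose tissue (BAT), inguinal white adipose tissue (IWAT), epididymal white adipose tissue (EWAT) and retroperitoneal white adipose tissue (RWAT), with 3 libraries each. All came from male wild-type C57BL/6J mice of 6 to 10 weeks, on a standard, low-fat rodent diet, and all had been denervated by surgery. No innervated tissue was analysed here, so depot is the only factor, and an effect of denervation cannot be read from these values. Whether the 3 libraries of each depot are from different mice is not stated, so a p-value here reflects the spread among these samples alone, which may be technical.

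Complex I (NADH dehydrogenase) and complex II (succinate dehydrogenase) pass electrons to ubiquinone, complex III passes them on to cytochrome c, and complex IV reduces oxygen. Complexes I, III and IV pump protons, and complex V (ATP synthase) uses the proton gradient to make ATP. Brown adipocytes are rich in mitochondria and burn the gradient as heat through the uncoupling protein Ucp1. In brown fat of mice ATP synthase is known to be low for the amount of respiratory chain, and the gene Atp5g1, one of the genes for subunit c of its membrane rotor, has been described as setting that amount.

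Library totals ran from 15699912 to 25633413 estimated counts, of which the mitochondrial genome took 3.28% to 19.0%. The 74 members took 2.42%, 1.19% and 1.14% of the counts in BAT, 1.44%, 1.26% and 0.637% in IWAT, 0.521%, 0.598% and 0.550% in EWAT, and 1.02%, 0.541% and 0.563% in RWAT. Levels are given as CPM, the counts of a gene scaled to a common library size with TMM factors, and they do not account for gene length. Libraries of a depot stood apart from each other. BAT 1, IWAT 1 and 2 and RWAT 1 held more member RNA than the other libraries of their depots, and skeletal muscle genes were high in all BAT libraries and in RWAT 3. EWAT 1 held transcripts of epididymal epithelium, at 1358 summed CPM of Crisp1, Adam7 and Defb12, against 0 and 0.400 CPM in EWAT 2 and 3. Ucp1, the defining gene of brown adipocytes, was at 2962, 32.2 and 702 CPM in the BAT libraries, so that BAT 2 lay below IWAT 1 and 2, at 47.6 and 129.8 CPM. Without BAT 2 the median log2 fold change of the members was 2.39 for BAT over EWAT, against 2.13 with it, and 0 members were called. In bulk tissue, fewer cells of a type and less RNA per cell cannot be told apart.

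The members moved together across the 12 libraries. The median member stood at 8.47, 6.96 and 6.81 log2 CPM in BAT, 7.44, 7.04 and 5.75 in IWAT, 5.54, 5.74 and 5.46 in EWAT, and 6.66, 5.50 and 5.64 in RWAT. BAT 1 was the highest library and IWAT 1 and 2 lay above BAT 2 and 3, while IWAT 3, RWAT 2 and RWAT 3 lay beside the EWAT libraries. BAT 1 held the highest level of 72 members, and IWAT 1 that of Atp5g3 and Atp5s. By depot means, 70 members followed the order BAT, IWAT, RWAT, EWAT. For the median member, neighbours in that order overlapped library by library. The EWAT libraries were close together, with an SD of 0.14 for the log2 level of the median member, whereas the SD was 0.92 in BAT, 0.89 in IWAT and 0.63 in RWAT (n = 3 each).

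**Figure D1:**
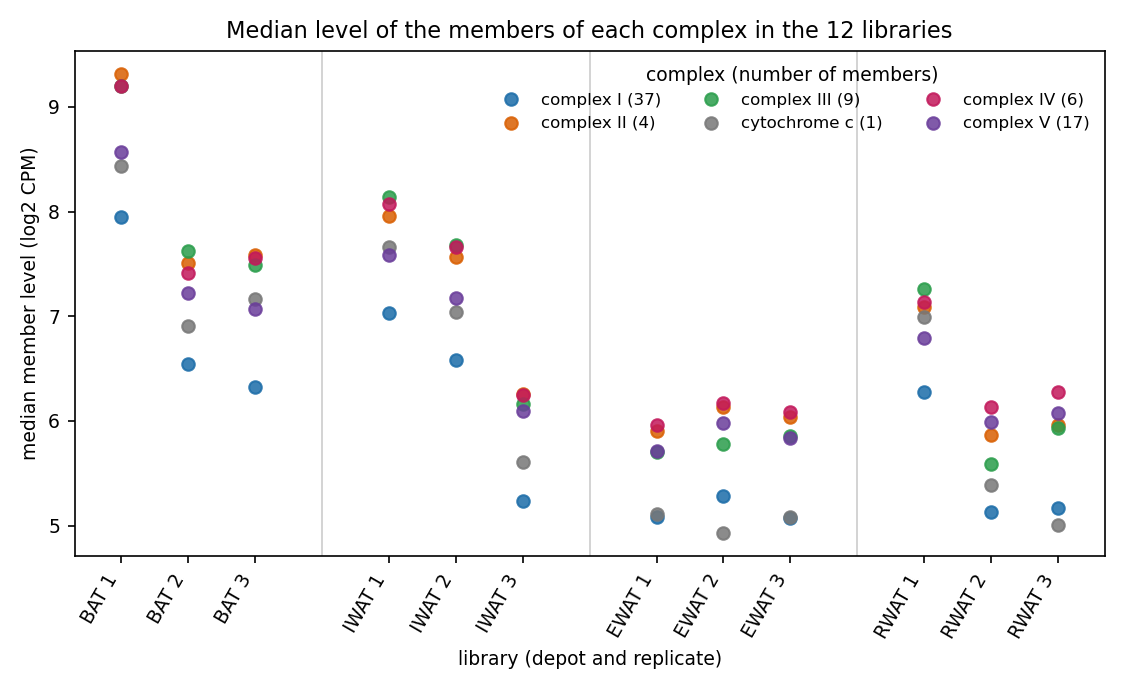
Median level of the members of each complex, in log2 CPM, in each of the 12 libraries, with 1 point per complex and library and the depots from left to right as BAT, IWAT, EWAT and RWAT. BAT 1 is the highest library for each complex, and the 3 EWAT libraries lie close together at the low end.

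Complex I had 37 members, and all of them were higher in each BAT library than in any EWAT library, as were 19.1% of all genes tested. Ndufs1, which carries iron-sulphur clusters of the electron path, had 693, 255 and 202 CPM in the BAT libraries, 347, 248 and 91.2 CPM in IWAT, 69.2, 66.6 and 65.9 CPM in EWAT and 212, 66.3 and 71.7 CPM in RWAT. Ndufv1, the subunit that binds NADH, had 685, 191 and 156 CPM in the BAT libraries, 224, 198 and 64.4 CPM in IWAT, 51.9, 69.2 and 52.3 CPM in EWAT and 131, 45.5 and 55.7 CPM in RWAT. Every BAT library lay above every EWAT library for both genes, and IWAT 1 and 2 lay among the BAT libraries. The log2 fold change of BAT over EWAT was 2.51 ± 0.64 (SE) for Ndufs1 and 2.57 ± 0.67 for Ndufv1, with edgeR adjusted p-values of 0.0678 and 0.0685. Ndufb8, an accessory subunit of the membrane arm whose protein is often used as a marker of assembled complex I, had 643, 200.5 and 186 CPM in the BAT libraries, 253, 199.8 and 65.0 CPM in IWAT, 64.4, 81.9 and 63.3 CPM in EWAT and 140.3, 58.8 and 68.6 CPM in RWAT, and its log2 fold change was 2.30 ± 0.61 (edgeR adjusted p = 0.0703). Of the subunits that bind NADH or carry iron-sulphur clusters, Ndufs1, Ndufs7, Ndufs8, Ndufv1 and Ndufv2 ranged from 2.05 ± 0.54 for Ndufv2 to 2.57 ± 0.67 for Ndufv1 in this comparison. The accessory subunits ranged from 1.51 ± 0.44 for Ndufa7 to 2.52 ± 0.67 for Ndufb9, and Ndufab1, which is also the mitochondrial acyl carrier protein, stood at 2.28 ± 0.56. Ndufa7 had 205, 89.8 and 79.6 CPM in the BAT libraries, 116, 100.3 and 42.1 CPM in IWAT, 42.7, 48.2 and 40.1 CPM in EWAT and 77.7, 42.1 and 46.6 CPM in RWAT. Over the mean of the white depots, BAT had its largest log2 fold change of complex I in Ndufv1, at 1.94 ± 0.47, and its smallest in Ndufa7, at 1.07 ± 0.34. The median over the 37 genes was 1.50 on the log2 scale for this comparison, 2.13 for BAT over EWAT and 0.78 for BAT over IWAT.

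Complex II is encoded by the nucleus alone, and its 4 genes Sdha to Sdhd are all members. Sdha, the flavin-carrying subunit that oxidises succinate, had 2013, 741 and 541 CPM in the BAT libraries, 879, 671 and 197 CPM in IWAT, 174, 187 and 157 CPM in EWAT and 516, 133 and 147 CPM in RWAT. Sdhb, the iron-sulphur subunit, had 745, 208 and 196 CPM in the BAT libraries, 269, 203 and 68.4 CPM in IWAT, 56.3, 66.4 and 57.0 CPM in EWAT and 144, 54.5 and 57.9 CPM in RWAT. For both genes every BAT library lay above every EWAT and RWAT library, and IWAT 1 lay above BAT 2 and 3. BAT over EWAT, Sdha had a log2 fold change of 2.67 ± 0.72 (edgeR adjusted p = 0.0710) and Sdhb of 2.68 ± 0.66 (edgeR adjusted p = 0.0663). The membrane anchor Sdhc had the smallest difference of the complex, with 391, 158 and 135 CPM in the BAT libraries, 212, 159 and 71.2 CPM in IWAT, 53.4, 67.8 and 63.9 CPM in EWAT and 123, 55.2 and 60.1 CPM in RWAT. Its log2 fold change was 1.88 ± 0.51 over EWAT and 0.63 ± 0.49 over IWAT. The median of the 4 genes was 2.40 for BAT over EWAT, 0.89 for BAT over IWAT and 1.43 for IWAT over EWAT.

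Complex III and its electron acceptor cytochrome c had the largest median log2 fold changes of BAT over EWAT, 2.50 over the 9 genes of the complex and 2.63 for Cycs. Cyc1, the cytochrome c1 subunit, had 685, 198 and 170.2 CPM in the BAT libraries, 299, 208 and 61.4 CPM in IWAT, 45.5, 48.6 and 42.8 CPM in EWAT and 165, 40.5 and 49.5 CPM in RWAT. The 3 BAT libraries and IWAT 1 and 2 and RWAT 1 were high, and the other 6 libraries lay between 40.5 and 61.4 CPM. Its log2 fold change was 2.94 ± 0.76 for BAT over EWAT (edgeR adjusted p = 0.0678), the largest of all members, and 2.05 ± 0.73 for IWAT over EWAT (edgeR adjusted p = 0.227). Uqcrfs1, the Rieske iron-sulphur protein, followed with 2.77 ± 0.68 for BAT over EWAT (edgeR adjusted p = 0.0663). Uqcrfs1 had 744, 241 and 190.5 CPM in the BAT libraries, 298, 237 and 71.5 CPM in IWAT, 54.4, 60.2 and 57.7 CPM in EWAT and 158, 48.0 and 61.0 CPM in RWAT, high in the same libraries as Cyc1. Uqcrc1, a core protein of the complex, had 1177, 275 and 288 CPM in the BAT libraries, 385, 309 and 112 CPM in IWAT, 94.5, 125 and 101 CPM in EWAT and 214, 89.5 and 104 CPM in RWAT. Its log2 fold change was 2.44 ± 0.65 for BAT over EWAT (edgeR adjusted p = 0.0703), beside 2.70 ± 0.70 for the other core protein, Uqcrc2. The small subunits Uqcrq, Uqcr10 and Uqcr11 stood at 2.55 ± 0.68, 2.38 ± 0.61 and 2.50 ± 0.64. Uqcrb, an accessory subunit, had the smallest log2 fold change of BAT over the white mean in complex III, at 1.49 ± 0.39, and had 465, 147 and 179.7 CPM in the BAT libraries, 221, 173 and 77.5 CPM in IWAT, 52.0, 52.4 and 64.3 CPM in EWAT and 149, 66.8 and 62.9 CPM in RWAT. The electron carrier itself went with the complex. Cycs had 347, 120.2 and 143 CPM in the BAT libraries, 202, 132 and 48.7 CPM in IWAT, 34.5, 30.3 and 33.7 CPM in EWAT and 127, 41.7 and 32.0 CPM in RWAT, and its log2 fold change was 2.63 ± 0.65 for BAT over EWAT (edgeR adjusted p = 0.0667). Cycs counts are less certain than those of most members, since 23.9% of its 75-base windows also occur in transcripts of 5 predicted genes, whose own counts summed to 164% of those of Cycs. The posterior standard deviation that RSEM gave was 3.00% of the Cycs count, as a median over the libraries.

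Complex IV is split between the mitochondrial genome, which encodes its catalytic core, and nuclear genes, of which 6 are members. Cox5a, which binds to the core from the matrix side, had 536, 158 and 168 CPM in the BAT libraries, 209, 148 and 65.6 CPM in IWAT, 51.9, 69.0 and 63.0 CPM in EWAT and 119, 56.2 and 63.3 CPM in RWAT. Cox5b, also on the matrix side, had 678, 179.7 and 179 CPM in the BAT libraries, 284, 208 and 77.8 CPM in IWAT, 64.8, 75.3 and 73.4 CPM in EWAT and 154, 63.6 and 79.1 CPM in RWAT. Both were lowest in EWAT by depot means, with every BAT library above every EWAT and RWAT library. Their log2 fold changes BAT over EWAT were 2.23 ± 0.56 and 2.28 ± 0.62, with edgeR adjusted p-values of 0.0667 and 0.0711. Cox6b1, a subunit on the side of the intermembrane space, had 813, 259 and 252 CPM in the BAT libraries, 343, 274 and 109 CPM in IWAT, 92.6, 96.7 and 92.3 CPM in EWAT and 199.8, 92.7 and 90.4 CPM in RWAT. Its log2 fold change was 2.23 ± 0.56 for BAT over EWAT, beside 2.04 ± 0.49 for Cox6c and 2.43 ± 0.56 for Cox7b, both small subunits that span the membrane. Cox7c, another of these, had the smallest log2 fold change of the 6, 1.91 ± 0.48, and stood at 252, 93.4 and 111 CPM in the BAT libraries, 176, 136 and 61.1 CPM in IWAT, 41.3, 40.6 and 39.8 CPM in EWAT and 108, 55.0 and 48.8 CPM in RWAT. Its BAT 2 and 3 libraries lay below IWAT 1 and 2, and the EWAT libraries stayed within 39.8 to 41.3 CPM.

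Complex V had the smallest median difference of the 5 complexes between BAT and EWAT and the widest range. Its genes Atp5b and Atp5a1 encode the beta and alpha subunits of the catalytic head. Atp5b had 5522, 1934 and 1394 CPM in the BAT libraries, 2556, 1931 and 608 CPM in IWAT, 555, 615 and 531 CPM in EWAT and 1452, 487 and 508 CPM in RWAT. Atp5a1 had 3398, 1146 and 986 CPM in the BAT libraries, 1539, 1092 and 444 CPM in IWAT, 413, 480.4 and 422 CPM in EWAT and 885, 369 and 409 CPM in RWAT. For both, BAT 1 stood above all other libraries, BAT 2 beside IWAT 2, and IWAT 3 beside EWAT. BAT over EWAT, the log2 fold change was 2.38 ± 0.69 for Atp5b (edgeR adjusted p = 0.0791) and 2.07 ± 0.60 for Atp5a1 (edgeR adjusted p = 0.0782). In the central stalk, the values were 1.77 ± 0.56 for Atp5c1, 2.04 ± 0.55 for Atp5d and 1.86 ± 0.46 for Atp5e. In the peripheral stalk, they were 1.63 ± 0.45 for Atp5f1, 1.82 ± 0.48 for Atp5h and 2.05 ± 0.58 for Atp5o, and Atp5j, which had 135 ± 48.0 CPM in BAT and 55.1 ± 6.98 CPM in EWAT (SD, n = 3 each), had 0.91 ± 0.29 for BAT over the white mean. Of the small membrane subunits, Atp5j2 stood at 2.28 ± 0.52 and Atp5l at 1.87 ± 0.47, and Atp5k, the e subunit at the dimer interface, had the largest log2 fold change of the complex, 2.43 ± 0.59 over EWAT and 1.69 ± 0.43 over the white mean. Atp5k had 380.5, 128 and 115 CPM in the BAT libraries, 172, 127 and 48.4 CPM in IWAT, 34.6, 43.9 and 36.9 CPM in EWAT and 97.4, 40.9 and 40.3 CPM in RWAT, so that IWAT 1 lay above BAT 2 and 3. At the other end, Atp5s had 6.06, 6.35 and 5.19 CPM in the BAT libraries, 6.93, 6.31 and 3.81 CPM in IWAT, 2.80, 4.54 and 3.70 CPM in EWAT and 6.43, 3.69 and 3.81 CPM in RWAT, and Atp5sl had 26.3, 10.5 and 15.3 CPM in the BAT libraries, 10.5, 13.3 and 9.24 CPM in IWAT, 8.65, 12.2 and 8.60 CPM in EWAT and 10.2, 9.32 and 9.35 CPM in RWAT. Both genes, which encode no structural subunit of ATP synthase, had log2 fold changes of 0.67 ± 0.33 and 0.82 ± 0.31 for BAT over EWAT. The median over the 17 complex V genes was 1.82 for BAT over EWAT, against 2.13, 2.40, 2.50 and 2.23 for complexes I, II, III and IV.

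**Figure D2:**
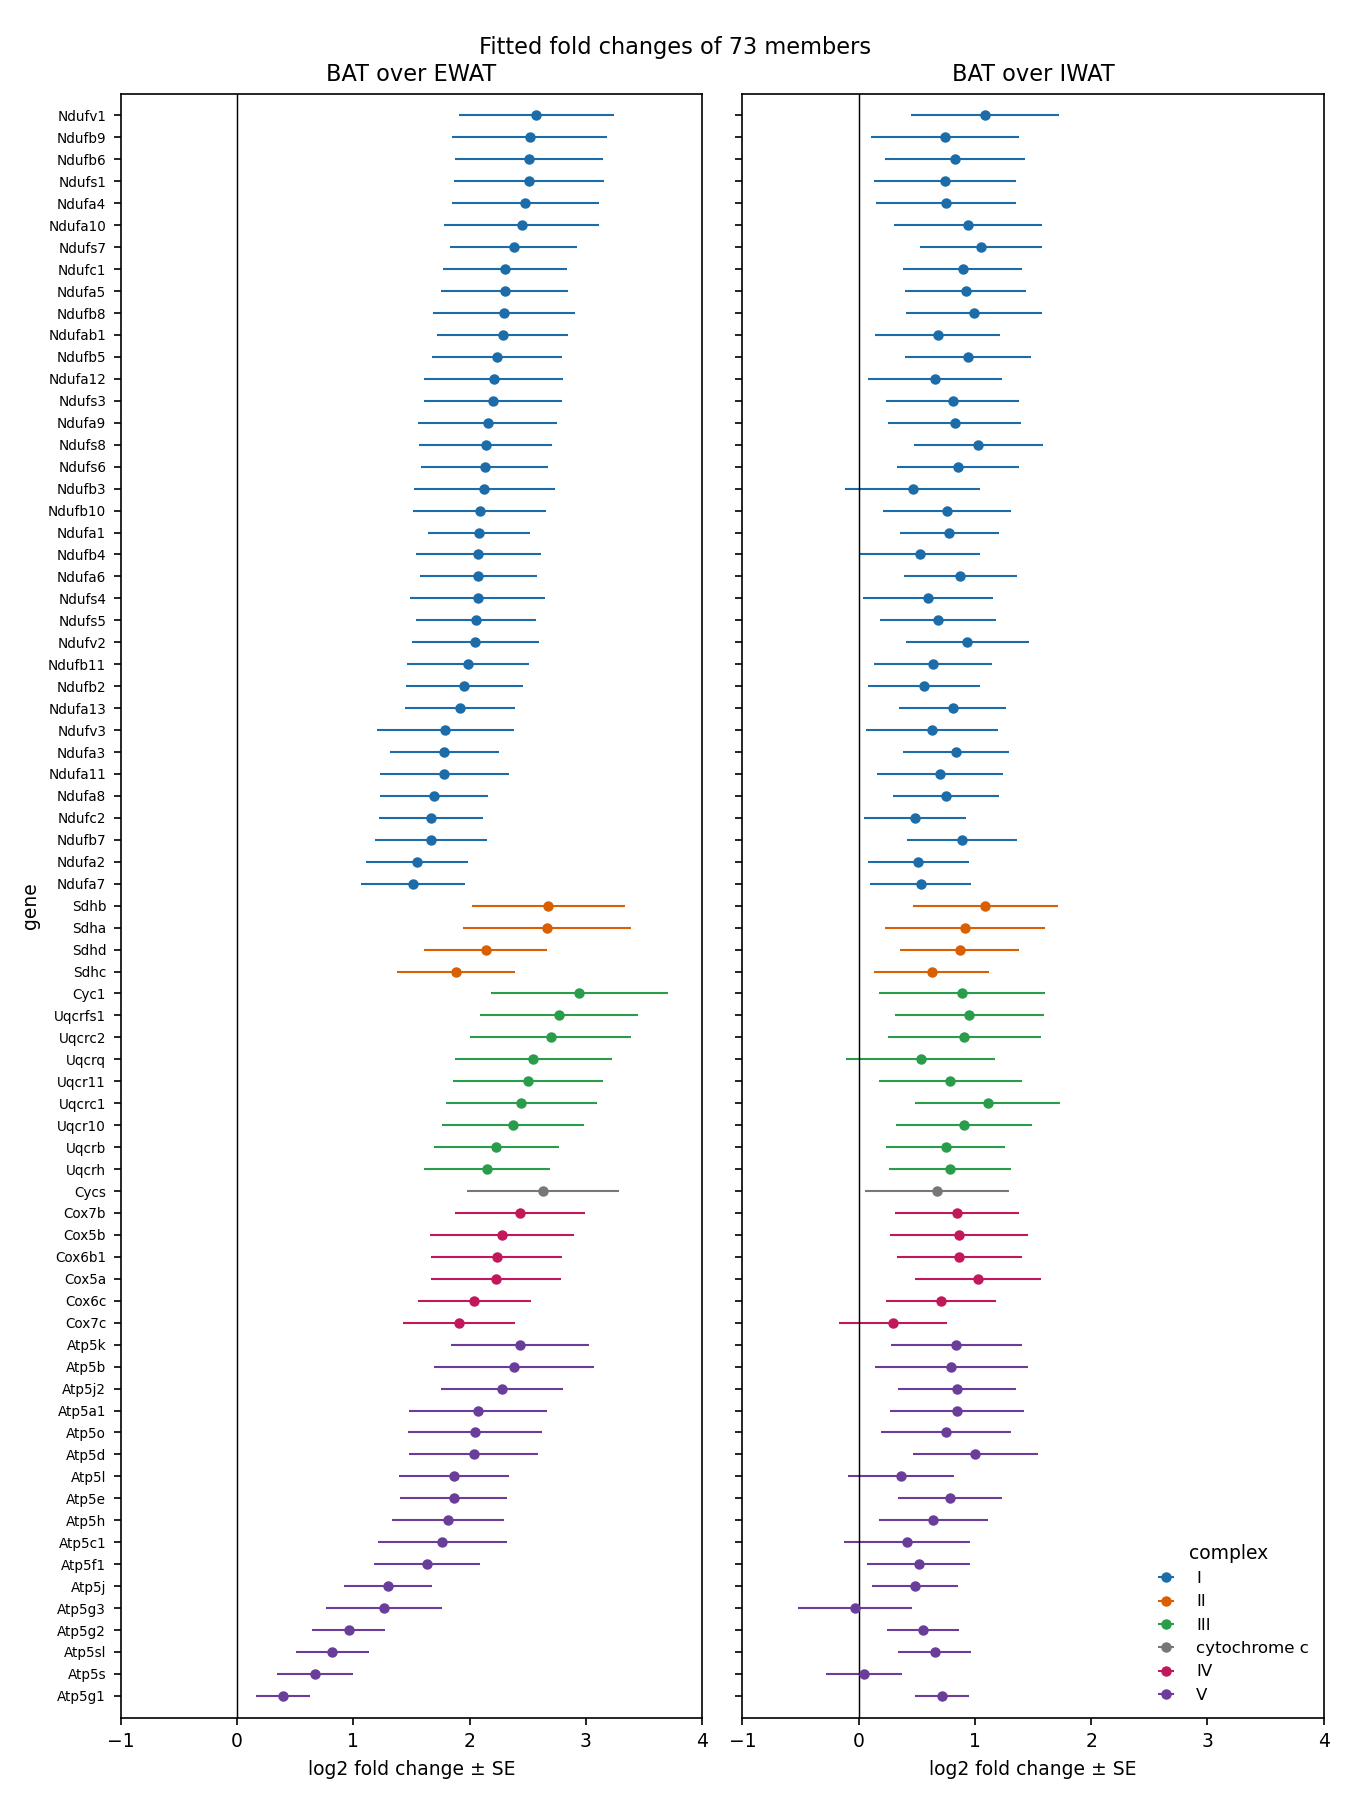
Fitted log2 fold change of 73 of the 74 members (points, coloured by complex, with 1 SE as bars) for BAT over EWAT on the left and BAT over IWAT on the right, in the same gene order. BAT over EWAT, the points lie between 0.40 and 2.94, with Atp5g1, Atp5s, Atp5sl, Atp5g2 and Atp5g3 lowest; BAT over IWAT, they lie between -0.03 and 1.11.

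All 74 members passed the filter on low counts, and none was called in any of the 7 comparisons. A gene was called where its edgeR quasi-likelihood p, after Benjamini-Hochberg adjustment over 19154 genes, was under 0.05. For BAT over EWAT, 150 genes were called (0.783%) and 0 members, with a lowest member p of 0.0567 for Ndufa1 after adjustment by edgeR. At an unadjusted p under 0.05, 72 of 74 members were higher, against 15.1% of all genes. The BAT libraries all lay above those of EWAT for 72 members, and Atp5g1 and Atp5sl overlapped. The median log2 fold change was 2.13 over the members and -0.08 over all genes. DESeq2, as an alternative, called 70 members higher, where it called 8.66% of all genes, and the 4 that it did not call were Atp5g1, Atp5g3, Atp5s and Atp5sl. The count with edgeR was 38 when only these depots entered the fit, 67 without BAT 3 and 55 without RWAT 1, and 1, Ndufa1, without TMM or without the filter on low counts. The share of all genes called in these alternative fits is not given here, so these counts cannot be set against it. Ndufa1, an accessory subunit of complex I, is named here after its values were seen, and had 177, 67.1 and 72.4 CPM in the BAT libraries, 76.7, 75.8 and 31.6 CPM in IWAT, 25.0, 26.3 and 23.4 CPM in EWAT and 40.4, 24.2 and 25.8 CPM in RWAT.

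Against the mean of the 3 white depots, 19 genes were called (0.0992%) and 0 members, and the lowest edgeR adjusted p of a member was 0.0921, for Ndufa1. The median member was 1.54 higher on the log2 scale in BAT, with -0.07 over all genes, and all 74 fold changes were positive. At an unadjusted p under 0.05, 72 members were higher, against 12% of all genes, the exceptions being Atp5g3 and Atp5s. DESeq2 called 55 members higher, and 3.3% of all genes. The edgeR count was 2 without RWAT 1 (Ndufa1 and Ndufs7, named after their values were seen). Without BAT 1 the median over members was 0.79. For BAT over RWAT, 11 genes were called (0.0574%) and 0 members, while 70 members had an unadjusted p under 0.05 in the direction of BAT, against 8.31% of all genes. All BAT libraries lay above all RWAT libraries for 53 members, against 7.42% of genes. The median was 1.60 and -0.07 over all genes, and it was 0.91 without BAT 1. DESeq2 called 6 members, against 0.905% of all genes, and the lowest edgeR adjusted p was 0.319.

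No member separated BAT from IWAT past the threshold. Of 19154 genes, 2 were called (0.0104%) and 0 members, and the lowest edgeR adjusted p of a member was 0.809. An unadjusted p under 0.05 was reached by 1 member, Atp5g1, against 2.52% of all genes, and DESeq2 called 0. Atp5g1 was also the only member whose BAT libraries all lay above IWAT, against 3.61% of all genes. The median log2 fold change was 0.79 over members and -0.04 over all genes, with 0.04 over members without BAT 1 and 0.45 without IWAT 3. For IWAT over EWAT, 66 genes were called (0.345%) and 0 members, with a median of 1.35 over members and -0.04 over all genes. Here 58 members had an unadjusted p under 0.05 in the direction of IWAT, against 8.85%, and for 42 members all IWAT libraries lay above all EWAT libraries, against 11.8%. DESeq2 called Cox7c, Atp5l, Uqcrq and Cycs, 4 members, and 2.32% of all genes, while the lowest edgeR adjusted p was 0.161, for Cox7c. IWAT over RWAT had a median of 0.86, or 0.49 without IWAT 1 and 1.33 without RWAT 1, with 0 genes called (0%), 1 member (Ndufa1) with an unadjusted p under 0.05 against 1.57% of all genes, and 0 members called by DESeq2. EWAT over RWAT had a median of -0.48, with 8 genes called (0.0418%) and 0 members by edgeR and 0 by DESeq2, and 0 members at an unadjusted p under 0.05. Without RWAT 1 that median was -0.01. By complex, IWAT over EWAT had medians of 1.33, 1.43, 1.71, 1.39 and 1.17 for complexes I to V and 1.95 for Cycs, and IWAT over RWAT had 0.84, 1.01, 1.01, 0.89 and 0.70 for complexes I to V and 0.93 for Cycs. EWAT over RWAT had -0.48, -0.44, -0.63, -0.47 and -0.41 for complexes I to V and -1.03 for Cycs. In each of these comparisons complex V lay nearest to 0.

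To describe how the members varied among themselves, the log2 level of each was set against the median member of the same library. The SD of this relative level over the 12 libraries had a median of 0.19 over the members and was under 0.3 for 63 of 74, while the median member itself had an SD of 0.96 in log2 CPM. The steadiest were Uqcrh, the hinge protein of complex III, with an SD of 0.07, Atp5o, a subunit of the stalk that holds the head of ATP synthase, with 0.07, and Atp5a1 with 0.08. Uqcrh had 586, 218 and 182 CPM in the BAT libraries, 282, 205 and 85.9 CPM in IWAT, 69.8, 82.6 and 69.7 CPM in EWAT and 153, 71.9 and 73.6 CPM in RWAT, and Atp5o had 680.5, 217 and 206 CPM in the BAT libraries, 339, 218 and 97.2 CPM in IWAT, 83.9, 98.8 and 84.2 CPM in EWAT and 196, 85.3 and 87.7 CPM in RWAT. Both followed the median member from library to library, high in BAT 1 and low in EWAT. The largest SDs were 0.94 for Atp5g1, 0.66 for Atp5s and 0.655 for Atp5sl, followed by 0.52 for Atp5g2 and 0.43 for Atp5g3. All of them belong to complex V by name. Cyc1 had an SD of 0.41, and its relative level was 0.95, 0.67 and 0.60 in BAT, 0.78, 0.66 and 0.20 in IWAT, -0.03, -0.13 and -0.04 in EWAT, and 0.71, -0.15 and -0.002 in RWAT. Across the 12 libraries, Pearson's r with the median of the other members was 0.24 for Atp5g1, 0.80 for Atp5sl, 0.83 for Atp5s, 0.89 for Atp5g3 and 0.91 for Atp5g2, and at least 0.96 for the rest. These points share depot and library, and the r values are descriptions without a test.

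**Figure D3:**
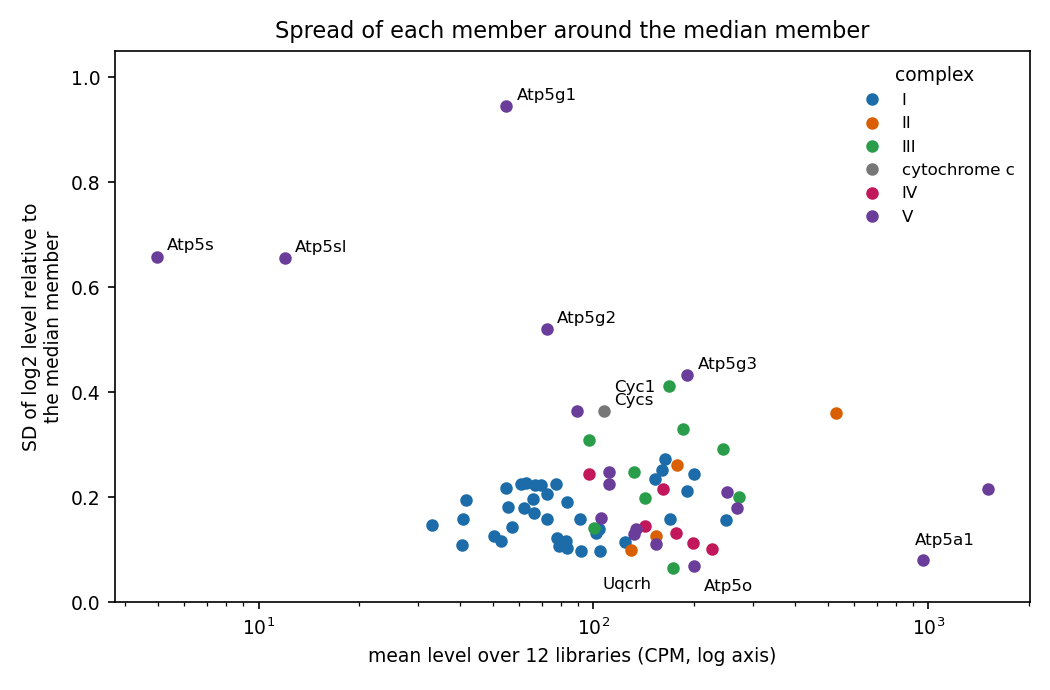
SD over the 12 libraries of each member's log2 CPM relative to the median member of the same library, against its mean level in CPM on a log axis, coloured by complex. Most members lie below 0.3, and Atp5g1 stands highest at 0.94.

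Atp5g1, the member with the largest relative SD, is 1 of the 3 genes of subunit c. Atp5g1, Atp5g2 and Atp5g3 encode different targeting peptides that are cut off on import, and the same mature protein. In GENCODE M21 transcripts, the last 75 codons before the stop encode the same residue at 75 of 75 positions in each pair, but 57 of 225 bases differ between at least 2 of the genes. The coding bases of mature subunit c are shown because reads from this stretch can be told apart only at such differences, written in capitals.
Atp5g1 (chr11:96068852-96075670, minus strand, GRCm38): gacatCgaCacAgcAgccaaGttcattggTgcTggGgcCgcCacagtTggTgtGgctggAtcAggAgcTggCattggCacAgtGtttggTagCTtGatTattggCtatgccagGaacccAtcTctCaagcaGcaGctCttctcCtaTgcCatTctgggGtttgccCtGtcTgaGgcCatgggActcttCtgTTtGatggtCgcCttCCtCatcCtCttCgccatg
Atp5g2 (chr15:102662864-102672352, minus strand, GRCm38): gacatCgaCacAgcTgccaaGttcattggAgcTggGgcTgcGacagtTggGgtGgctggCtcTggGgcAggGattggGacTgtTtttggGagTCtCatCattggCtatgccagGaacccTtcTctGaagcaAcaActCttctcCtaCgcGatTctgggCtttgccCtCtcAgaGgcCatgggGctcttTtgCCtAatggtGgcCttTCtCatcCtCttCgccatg
Atp5g3 (chr2:73908447-73911326, minus strand, GRCm38): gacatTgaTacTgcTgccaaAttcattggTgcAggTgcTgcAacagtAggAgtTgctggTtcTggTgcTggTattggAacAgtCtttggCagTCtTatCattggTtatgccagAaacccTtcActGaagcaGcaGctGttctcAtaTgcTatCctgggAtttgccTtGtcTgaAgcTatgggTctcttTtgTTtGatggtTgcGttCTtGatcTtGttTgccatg
Atp5g1 and Atp5g2 are identical at 84.9% of these bases, Atp5g1 and Atp5g3 at 80.0%, and Atp5g2 and Atp5g3 at 78.7%. The longest identical run is 20 bases for Atp5g1 and Atp5g2, 11 for Atp5g1 and Atp5g3 and 8 for Atp5g2 and Atp5g3, all shorter than the 75-base reads. Of the 75-base windows in transcripts of each gene, 35.8% of those of Atp5g2, 7.29% of those of Atp5g1 and none of those of Atp5g3 also occur in transcripts of other genes. The predicted genes among these in the count table, 7 for Atp5g1 and 2 for Atp5g2, had counts that summed to 73.6% of those of Atp5g1 and 35.8% of those of Atp5g2, so that counts of both are less certain than those of Atp5g3. The Atp5g1 windows include those of a 4715-base transcript, whereas RSEM's effective length for the gene was 573 to 642 bases. The 7.29% may thus understate the shared part of its counted RNA. RSEM's posterior standard deviation, as a median percent of the count over the libraries, was 2.34% for Atp5g1, 7.93% for Atp5g2 and 0% for Atp5g3.

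Atp5g1 did not follow the other members between depots. It had 93.8, 63.2 and 50.4 CPM in the BAT libraries, 42.3, 36.8 and 47.2 CPM in IWAT, 48.3, 56.5 and 52.6 CPM in EWAT and 44.4, 61.2 and 62.8 CPM in RWAT, so that its highest library was 2.55-fold above its lowest, where Atp5b spanned 11.3-fold. The 3 BAT libraries overlapped those of EWAT and RWAT, and IWAT 1 and 2 were the lowest although they were among the highest for most members. Its log2 fold change was 0.40 ± 0.23 for BAT over EWAT (edgeR adjusted p = 0.277), 0.71 ± 0.23 for BAT over IWAT (edgeR adjusted p = 0.809) and -0.32 ± 0.23 for IWAT over EWAT (edgeR adjusted p = 0.507). Without TMM the BAT over EWAT value was -0.20, the opposite sign. Relative to the median member, Atp5g1 stood at -1.92, -0.97 and -1.15 log2 units in BAT, -2.04, -1.83 and -0.18 in IWAT, 0.06, 0.09 and 0.26 in EWAT, and -1.18, 0.44 and 0.34 in RWAT. The BAT libraries lay below the EWAT libraries on this scale, on which a library's scaling factor cancels. Atp5g2 was intermediate, with 156, 86.1 and 84.9 CPM in the BAT libraries, 97.7, 81.1 and 43.8 CPM in IWAT, 47.0, 61.8 and 59.1 CPM in EWAT and 51.1, 46.1 and 56.8 CPM in RWAT and a log2 fold change of 0.96 ± 0.31 for BAT over EWAT (edgeR adjusted p = 0.0983). Atp5g3 had 329, 280.3 and 136 CPM in the BAT libraries, 396, 248 and 118 CPM in IWAT, 98.9, 112 and 99.1 CPM in EWAT and 259, 107 and 103 CPM in RWAT, with IWAT and not BAT highest by mean, and its log2 fold change was -0.03 ± 0.49 for BAT over IWAT and 1.26 ± 0.50 for BAT over EWAT (edgeR adjusted p = 0.140).

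Levels of different genes were compared per length, as the authors' TPM. Of the summed TPM of the 3 subunit c genes, Atp5g1 gave 17.7%, 15.6% and 19.7% in BAT, 8.72%, 10.5% and 23.2% in IWAT, 24.8%, 26.2% and 26.1% in EWAT, and 12.8%, 30.2% and 30.0% in RWAT. Atp5g3 gave the most in each library, from 44.4% in RWAT 3 to 72.6% in IWAT 1. The 3 genes together came to 584, 715 and 538 TPM in BAT, 752, 647 and 551 in IWAT, 403, 531 and 579 in EWAT, and 721, 557 and 548 in RWAT. These TPM sums overlapped between all depots, whereas the median member had 349, 206 and 218 TPM in BAT and 95.7, 120 and 121 TPM in EWAT, with no overlap. TPM carries no TMM factor, which was 0.615 in BAT 1 and 1.15, 1.17 and 1.23 in the EWAT libraries. In TMM-scaled CPM, Atp5g2 and Atp5g3 were higher in each BAT library than in any EWAT library, as were 19.1% of all genes tested. The overlap of the sums is thus a statement about TPM alone.

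**Figure D4:**
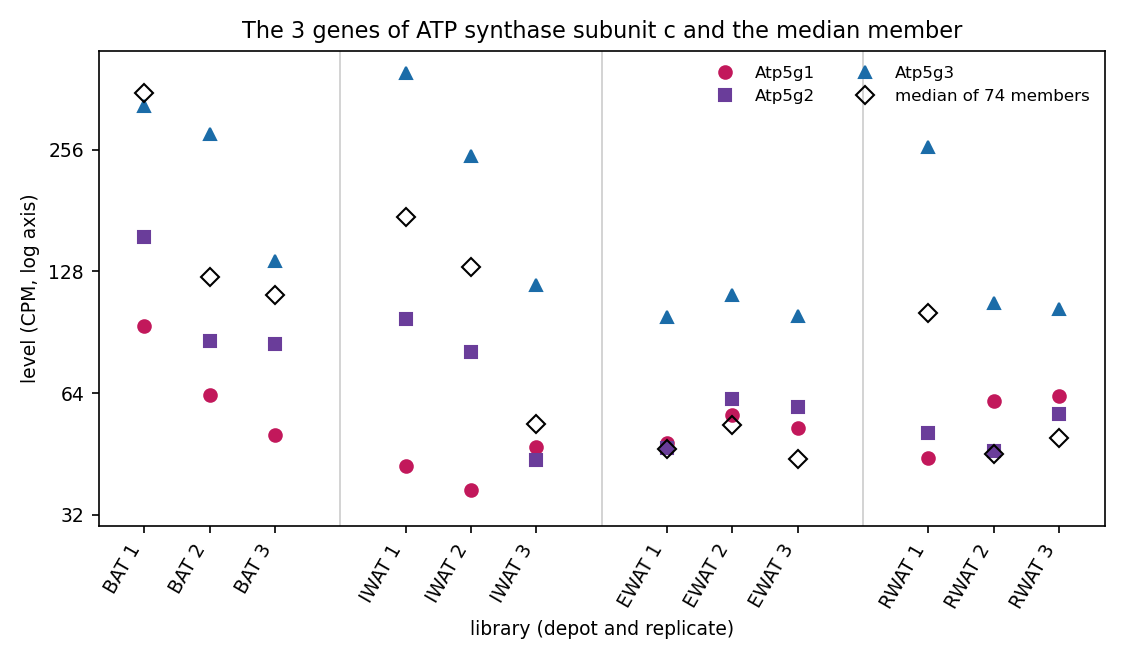
Level in CPM on a log axis of the 3 genes of ATP synthase subunit c and of the median of the 74 members in each library, depots from left to right as BAT, IWAT, EWAT and RWAT. Atp5g1 stays between 36.8 and 93.8 CPM in all libraries, while the median member lies far above it in BAT and IWAT 1 and 2 and close to it in EWAT.

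The share of each complex in the summed TPM of the members varied within narrow ranges. Complex I gave 33.2% to 35.6% over all 12 libraries and complex IV 15.1% to 17.3%. Complex V gave 27.4%, 29.4% and 27.5% in BAT, 29.5%, 28.5% and 31.0% in IWAT, 32.0%, 32.2% and 32.4% in EWAT and 30.0%, 32.9% and 32.1% in RWAT, with all BAT libraries below all EWAT libraries. Complex III gave 15.9%, 14.2% and 14.5% in BAT, 15.0%, 15.1% and 13.6% in IWAT, 12.7%, 12.7% and 12.4% in EWAT and 14.4%, 12.9% and 13.0% in RWAT, with BAT above EWAT in each library. Complex II gave 5.17%, 4.94% and 4.87% in BAT, 4.56%, 4.65% and 4.23% in IWAT, 4.28%, 4.19% and 4.34% in EWAT and 4.42%, 3.83% and 3.58% in RWAT, and every BAT library lay above every other library. Per length, the members with the highest mean TPM over the 12 libraries were Atp5b with 1029 TPM, Cox6b1 with 839 TPM, Cox5b with 584 TPM and Atp5a1 with 584 TPM. The lowest were Atp5s with 4.35 TPM, Atp5sl with 11.9 TPM and Ndufa11, an accessory subunit of complex I, with 17.1 TPM. In mean CPM, Ndufa11 stood at 40.9, beside 41.7 for Ndufb2, which had 90.7 TPM. The low place of Ndufa11 thus depends on the gene length behind its TPM, which is not given here. Set against each other per length, the median TPM of complex IV was 613 ± 164 in BAT and 231 ± 20.8 in EWAT, that of complex V 331 ± 70.9 in BAT and 163 ± 28.9 in EWAT, and that of complex I 223 ± 63.7 in BAT and 92.9 ± 12.3 in EWAT (SD, n = 3 each).

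Other mitochondrial genes were set beside the members from lists of known function, whose genes were counted as called by edgeR over all genes tested. The lists were put together with earlier results of these data known. The 14 citric acid cycle genes had a median log2 fold change of 2.55 for BAT over EWAT and 1.00 for BAT over IWAT. For BAT over EWAT, edgeR called 0 of 14, DESeq2 called 14, and 14 were higher at an unadjusted p under 0.05. Of all genes in this comparison, edgeR called 0.783%, DESeq2 called 8.66% higher, and 15.1% were higher at an unadjusted p under 0.05. The same shares apply to the lists that follow. The 13 mRNAs of the mitochondrial genome had medians of 2.45 for BAT over EWAT and 0.85 for BAT over IWAT. Of these, edgeR called 0 for BAT over EWAT, DESeq2 called 12, and 13 were higher at an unadjusted p under 0.05. The 38 assembly factors of the complexes had medians of 1.18 and 0.44, with 0 called by edgeR, 28 by DESeq2 and 34 higher at an unadjusted p under 0.05 for BAT over EWAT. The 15 genes of mitochondrial mass and import had medians of 1.18 and 0.55, with 0 called by edgeR, 8 by DESeq2 and 10 higher at an unadjusted p under 0.05 for BAT over EWAT. The 13 other chain subunits had medians of 1.93 for BAT over EWAT and 0.64 for BAT over IWAT. For BAT over EWAT, 10 of 13 fold changes were positive, and DESeq2 called 8 higher. At an unadjusted p under 0.05, 8 were higher and 2 were lower. By edgeR, Cox7a1 and Cox8b rose in BAT against EWAT, and Cox7a1 in BAT against the white mean. Both genes also stand in the list of brown adipocyte markers. Cox7a1 had 351, 23.0 and 70.0 CPM in the BAT libraries, 19.7, 20.8 and 3.19 CPM in IWAT, 1.95, 1.20 and 1.45 CPM in EWAT and 6.01, 1.98 and 8.05 CPM in RWAT. Cox8b had 803, 88.9 and 142 CPM in the BAT libraries, 102, 133 and 13.6 CPM in IWAT, 0.528, 0.128 and 0.400 CPM in EWAT and 39.7, 0.405 and 12.6 CPM in RWAT. Both were high in BAT and low in EWAT, and edgeR adjusted p-values for BAT over EWAT were 0.0426 and 0.0480. RWAT 3, a library rich in muscle transcripts, lay above RWAT 2 for both genes and below RWAT 1 for Cox8b. A part of muscle RNA in the levels of these 2 genes was not tested. Cs, which encodes citrate synthase and is a common gauge of mitochondrial content, had 1953, 741 and 552 CPM in the BAT libraries, 975, 629 and 196 CPM in IWAT, 200.4, 198 and 172 CPM in EWAT and 572, 151 and 149.8 CPM in RWAT. The genes most like the median member over the 12 libraries, by Pearson's r of log2 CPM, were Fh1, Dnaja3, Gm561, Abcd3 and Uqcc1, with r of 0.995 to 0.996. Fh1 encodes fumarase, Dnaja3 a mitochondrial chaperone, Abcd3 a transporter of peroxisomes, and Uqcc1 an assembly factor of complex III.

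Regulators of mitochondrial biogenesis differed in how they followed the members. Of all genes, edgeR called 0.783% for BAT over EWAT, and DESeq2 called 8.66% higher. Ppargc1a, the PGC-1 alpha coactivator, was the 1 of 15 tested regulators that edgeR called for BAT over EWAT, where DESeq2 called 6. It had 30.7, 14.9 and 15.0 CPM in the BAT libraries, 15.0, 13.0 and 4.86 CPM in IWAT, 1.06, 1.71 and 0.750 CPM in EWAT and 7.86, 0.991 and 3.37 CPM in RWAT. Its log2 fold change was 4.09 ± 0.76, with an edgeR adjusted p of 0.0473. Ppargc1b, its close relative, had 43.0, 13.3 and 15.2 CPM in the BAT libraries, 13.2, 13.6 and 5.74 CPM in IWAT, 4.70, 5.87 and 4.70 CPM in EWAT and 12.3, 2.66 and 4.73 CPM in RWAT, and Esrra, the nuclear receptor ERR alpha, had 133, 47.5 and 45.3 CPM in the BAT libraries, 43.3, 44.7 and 23.8 CPM in IWAT, 19.9, 24.2 and 22.0 CPM in EWAT and 34.2, 20.0 and 23.4 CPM in RWAT. Both had their highest library in BAT 1, as the members had, and were not called. Nrf1 and Gabpa, transcription factors that bind promoters of chain subunits, had fold changes of -0.41 and 0.31 on the log2 scale for BAT over EWAT. Nrf1 had 14.8, 15.9 and 22.7 CPM in the BAT libraries, 17.3, 18.1 and 25.9 CPM in IWAT, 21.2, 21.9 and 27.7 CPM in EWAT and 18.4, 26.4 and 26.2 CPM in RWAT, and BAT 1 was its lowest library. Gabpa had 60.1, 49.3 and 62.3 CPM in the BAT libraries, 59.3, 60.9 and 54.9 CPM in IWAT, 45.5, 43.7 and 49.4 CPM in EWAT and 48.0, 64.5 and 48.5 CPM in RWAT. Tfam, which packages and transcribes the mitochondrial genome, had 35.4, 27.1 and 27.1 CPM in the BAT libraries, 29.9, 25.0 and 19.5 CPM in IWAT, 18.8, 22.4 and 19.0 CPM in EWAT and 22.9, 19.5 and 21.0 CPM in RWAT, with a log2 fold change of 0.57 for BAT over EWAT (edgeR adjusted p = 0.103).

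Promoter windows from RefSeq (GRCm38.p6), running from 250 bases before to 50 after the annotated start, were found for 61 of the 74 members. Median GC content was 58.7% over the windows of members and 52.7% over the windows of all genes. Letters known for 5 factors were searched on both strands. The ETS letters end in the letters with which those of YY1 begin, so these matches can overlap. The NRF1 core GCGCATGC occurred in 10 of 61 members (16.4%) and in 3.05% of 27025 genes, and among the members were Cycs, Sdhb, Uqcrc1, Atp5k and Atp5g2. The ETS core CCGGAAG, bound by the Gabpa protein, occurred in 14 members (23.0%) and 9.93% of genes. The YY1 letters AAGATGGCG occurred in 8 members (13.1%) and 1.64% of genes, and the ERR letters TCAAGGTCA in 2, Atp5g3 and Sdhd (3.28%), and 0.466% of genes. The Sp1 core GGGCGG occurred in 23 members (37.7%) and 38.2% of genes. Such a match is not evidence of binding. The windows of Atp5g1 and Atp5g3 are shown because these genes for the same mature protein had unlike levels across depots. Capitals mark the ERR letters, which read on the other strand here and lie 52 bases before the start of Atp5g3. Only bases outside annotated exons are printed, so the Atp5g1 run ends 40 bases before its start, and no motif of the 5 lies in it.
Atp5g1 (chr11:96075671-96075881, minus strand, GRCm38.p6): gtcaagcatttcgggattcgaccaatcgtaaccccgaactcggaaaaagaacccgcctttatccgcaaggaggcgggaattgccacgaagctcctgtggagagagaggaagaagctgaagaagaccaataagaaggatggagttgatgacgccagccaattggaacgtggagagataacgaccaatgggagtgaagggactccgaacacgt
Atp5g3 (chr2:73911327-73911576, minus strand, GRCm38.p6): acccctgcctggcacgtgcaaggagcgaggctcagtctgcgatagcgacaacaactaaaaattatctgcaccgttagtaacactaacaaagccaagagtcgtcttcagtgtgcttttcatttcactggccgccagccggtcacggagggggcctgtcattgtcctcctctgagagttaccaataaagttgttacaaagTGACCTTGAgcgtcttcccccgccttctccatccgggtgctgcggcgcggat

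Sums of cell type markers were set beside the members, some rising with them and others not, and their part in the differences was not tested. The 7 adipocyte markers (such as Adipoq and Plin1) summed to 22988, 23356 and 10100 CPM in BAT, 28850, 21492 and 7474 in IWAT, 7081, 7325 and 4939 in EWAT and 22298, 4361 and 2695 in RWAT. BAT 3, IWAT 3, RWAT 2 and RWAT 3 were the lower libraries of their depots for adipocyte markers. They were also low for the median member within their depots. Other libraries went differently: BAT 2 had the highest adipocyte sum of BAT, but its median member stood near that of BAT 3, at 6.96 and 6.81 log2 CPM, against 8.47 in BAT 1. RWAT 3 lay below RWAT 2 for adipocyte markers but above it for the median member. The 10 macrophage markers (such as Adgre1 and Cd68) summed to 1043, 1359 and 5197 CPM in BAT, 1662, 2903 and 5604 in IWAT, 5606, 7708 and 6950 in EWAT and 1836, 5284 and 4859 in RWAT. The 4 libraries at 1043 to 1836 CPM were BAT 1, BAT 2, IWAT 1 and RWAT 1, and BAT 3, at 5197 CPM, kept a median member above EWAT. The 8 brown adipocyte markers summed to 5180, 239.8 and 1250 CPM in BAT, 302, 457 and 64.2 in IWAT, 5.38, 8.31 and 8.70 in EWAT and 102, 6.44 and 28.4 in RWAT. Ucp1 alone had 2962, 32.2 and 702 CPM in BAT, 47.6, 129.8 and 21.5 CPM in IWAT, 0, 0.0856 and 0.050 CPM in EWAT and 12.4, 1.31 and 0.163 CPM in RWAT. The list also holds Cox7a1 and Cox8b. RWAT 3, at 28.4 CPM for the list, had 0.163 CPM of Ucp1 and 19480 summed CPM of muscle markers. Whether muscle RNA adds to the sums of this list was not tested. In BAT 2 the median member stood at 6.96 log2 CPM, against 7.04 in IWAT 2. Skeletal muscle fibres also express chain subunits, and the 18 muscle markers summed to 23752, 16830 and 2821 CPM in BAT, 77.2, 69.6 and 46.2 in IWAT, 68.7, 80.5 and 65.9 in EWAT and 104, 112 and 19480 in RWAT. RWAT 3 carried more muscle transcripts than BAT 2, and its median member stood at 5.64 log2 CPM. In RWAT 2, with 112 summed CPM of muscle markers, the median member stood at 5.50. RWAT 3 also had the lowest adipocyte sum of the 12 libraries, and what muscle RNA adds to the members was not tested. Leaving out RWAT 3 and EWAT 1 together, an alternative chosen after seeing the data, left 0 members called in every comparison. No gene of these 4 lists was at 0 in all libraries of any depot. The other lists, summed per library, ran from 2.60 to 19.3 CPM for 4 B cell genes, from 1.18 to 4.80 CPM for 4 T cell genes, from 315 to 770 CPM for 4 endothelial genes and from 217 to 621 CPM for 4 stromal progenitor genes. The 4 mesothelial genes summed to 0.498 to 1.77 CPM in BAT and IWAT, and to 33.2 to 152 CPM in EWAT and RWAT.

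**Figure D5:**
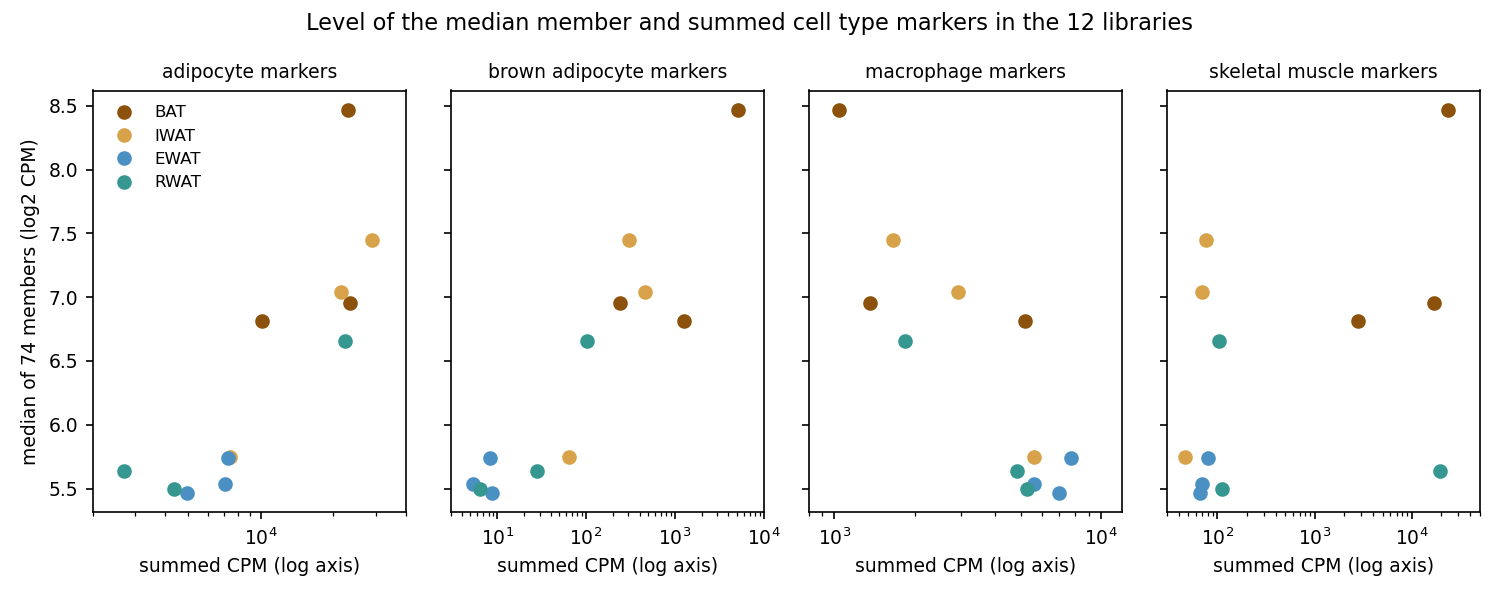
Median level of the 74 members in log2 CPM against the summed CPM of adipocyte, brown adipocyte, macrophage and skeletal muscle markers on log axes, with 1 point per library coloured by depot. Libraries with more adipocyte marker RNA and less macrophage marker RNA mostly lie higher, with exceptions such as BAT 3, which lies above RWAT 1. RWAT 3, at 19480 summed CPM of muscle markers and with the lowest sum of adipocyte markers, lies with the low libraries.

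Counting adds a limit for some members. The exons of 27 members overlap another annotated gene, on the opposite strand for 24 of them, and whether reads were counted by strand is not given in the sources used here. Reads of such pairs may not be told apart. For Ndufs1 the overlapping gene Eef1b2 had 104% of its counts, but no 75-base window of Ndufs1 occurred in Eef1b2 transcripts. Ndufs1 shared windows with Ino80dos alone (3.23%). For Ndufb2 the gene Braf had 148%, and 3.97% of Ndufb2 windows occurred in other genes, Braf among them. At least 10% of the 75-base windows also occurred in transcripts of another gene for 16 members, and no window did for 38.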

How the data were processed

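RNA was sequenced from 12 denervated adipose samples, 3 per depot. Per the labels' protocols, ribosomal RNA was removed from total RNA and single-end 75-base reads were made. Per the submitters' processing notes, Trimmomatic 0.36, RSEM 1.3.0, DESeq2 1.10.1 and the GRCm38.p4 build were used. The annotation release and the strand setting were not given in the sources used here. For each gene and library, the authors deposited RSEM's expected counts, which share reads of uncertain origin between genes, and TPM, which is also scaled by gene length. Per the file headers, the deposited tables also hold the posterior standard deviation of the estimated counts.

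Expected counts were rounded to whole numbers and tested with edgeR 4.0.16 (R 4.3.3): 1 quasi-likelihood fit over all 12 libraries, genes kept by filterByExpr (19154), TMM scaling, 7 comparisons between depots and Benjamini-Hochberg adjustment over all genes tested, with a threshold of 0.05. CPM values are TMM-scaled, and log2 CPM has a prior count of 2. Each SE was derived from the edgeR test, as the absolute log2 fold change divided by the square root of its F statistic. The fit was tested on simulated data with 200 changed genes. Depots, not animals, were compared, since the labels tie no sample to an animal. Comparisons with BAT share its 3 libraries. DESeq2 1.42.0, other scalings, filters and left-out libraries were tried as alternatives. The members and lists were chosen with earlier results of these data known. The following genes were fixed by rule. In each complex they were core subunits, the gene with the most counts and those with the largest and smallest fold change of BAT over the white mean. Up to 5 called members a comparison were added, and the 3 members with the smallest and the 3 with the largest relative spread. Outside the members they were listed regulators, Cs, Ucp1, called list genes, and the 5 genes most like the median member. Other members, mostly given by fold change alone, such as Ndufb9, Uqcrc2 and Atp5j, fall outside this rule. They were named after their values were seen. Promoter sequences are from RefSeq (GRCm38.p6), and gene coordinates and transcripts from GENCODE M21 (GRCm38). Tables were handled in Python 3.11.15 with pandas 2.3.3. The values of 1 member are not reported here, though it is kept in counts and medians.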

Additional observations from a re-analysis of the deposited data

How the results depend on the processing

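Over 20 alternatives, 0 results reversed past the threshold, and of 3753 values of single genes 3612 stayed on the same side and 141 passed the threshold only in the alternative. The number of members called by edgeR was 0 in each comparison. With DESeq2 it was 55 for BAT over the white mean, 70 for BAT over EWAT, 6 for BAT over RWAT and 4 for IWAT over EWAT. For BAT over EWAT it was 1 without TMM, 1 with no filter on low counts and 38 with only the depots compared. Leaving out 1 library at a time gave 0 to 67 members called for BAT over EWAT, 0 to 2 for BAT over the white mean, and 0 for the other comparisons. The labels do not say whether their replicate numbers pair the samples. Of 18 same-numbered pairs 10 correlated over 0.1 in their deviations from the depot means, with r from -0.35 to 0.68. With 3 libraries a depot, these values cannot decide whether the samples are paired. With the replicate block 55 members were called for BAT over the white mean and 70 for BAT over EWAT. The share of all genes called is not given here for the edgeR alternatives, so their counts of members cannot be set against it. The median log2 fold change of the members with 1 library left out ran from 0.79 to 1.87 for BAT over the white mean, 1.42 to 2.48 for BAT over EWAT, 0.036 to 1.17 for BAT over IWAT, 0.91 to 2.08 for BAT over RWAT, 1.00 to 1.72 for IWAT over EWAT, 0.49 to 1.33 for IWAT over RWAT, and -0.70 to -0.01 for EWAT over RWAT. Library sizes without TMM moved the median of all genes to -0.60 for BAT over EWAT, where the median over members was 1.45, and to -0.46 for BAT over the white mean, where it was 1.04. Without TMM the log2 fold change of Atp5g1 turned to -0.20 for BAT over EWAT, -0.02 for BAT over the white mean and -0.24 for BAT over RWAT. That of Atp5s turned to -0.03 for BAT over the white mean, -0.14 for BAT over IWAT and -0.08 for BAT over RWAT. The causes were not tested. Depth does not limit most members, whereas Atp5s, at 2.80 to 6.93 CPM, rests on few counts.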
